A study of Bos taurus and Mus musculus with 16 samples.

Results

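The mitochondrial genome and the nuclear genes that copy, transcribe, process and translate it were followed in early embryos of 2 species in which TEAD4 had been edited. The genes were chosen by symbol: the 13 protein-coding transcripts that mitochondrial DNA encodes, and 24 nuclear genes for replication, transcription, RNA processing and translation in the organelle. All 37 were found among 16655 genes of the mouse table and among 14852 genes of the bovine table, and all 37 had a mean of at least 10 normalized reads in both, the minimum set for testing a gene. Ribosomal and transfer RNAs of the mitochondrial genome have 0 rows in either table, so only values of protein-coding genes are described here.

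Mitochondrial DNA is a small circle that encodes core subunits of the respiratory chain and of ATP synthase. The polymerase POLRMT, with TFAM and TFB2M, transcribes both strands into long precursors, which are cut into single messengers, transfer RNAs and ribosomal RNAs, and most messengers then receive a short poly(A) tail. ND6 is the one protein gene read from the opposite strand, and in human cells its messenger has little or no poly(A) tail. In the mammalian embryo mitochondrial DNA is inherited from the egg, and its replication stays low through most of the cleavage stages.

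BE3 is a base editor that joins a cytidine deaminase to a Cas9 nickase and turns C into T at a guided site. As zygotes, edited embryos were injected with its mRNA and single guide RNAs against Tead4 (mouse) or TEAD4 (cattle), and control embryos received BE3 mRNA with no guide RNA, so that other effects of the guide RNAs and effects of editing cannot be told apart. The 4 mouse samples were morulae at day 3.25, 2 edited and 2 control, and the 12 bovine samples were blastocysts at day 7.0, 6 edited and 6 control. The labels give neither strain, nor breed, nor how many embryos went into a sample, and injected embryos can hold edited and unedited cells side by side. Nothing states that replicates came from separate collections, so a p-value here measures sample-to-sample spread, and that spread may be technical. The test used (limma) estimates the spread of a gene from its own samples and from genes of like level. With 2 samples a group in mouse, standard errors and intervals there are not the spread of that gene's samples alone. Because whole embryos were sequenced, fewer cells of a type, fewer mitochondria and less RNA per cell cannot be told apart.

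Gene-assigned reads numbered 4386305 and 6109425 in edited and 4187826 and 3642907 in control morulae, and in bovine libraries 817329 to 2259064 in edited and 934078 to 2501592 in control blastocysts. Values are normalized reads, which are read counts divided by the authors' size factor for each sample. The level of 3 reads is 2.13 to 3.79 of these units in mouse and 1.71 to 5.56 in bovine samples. Tead4 had 57.2 and 76.5 normalized reads in edited morulae, against 458 and 519 in control morulae, a log2 fold change of -2.86 ± 0.25 (SE, adjusted p = 5.37e-09, limma). Bovine TEAD4 averaged 41.2 normalized reads in edited and 96.7 in control blastocysts (n = 6 each), and its groups overlapped (-1.25 ± 0.25, adjusted p = 0.235). All 9 listed embryo markers (Pou5f1, Nanog, Sox2, Gata3, Cdx2, Krt8, Krt18, Tfap2c and Zp3) were present in both species. In bovine samples 7 of them had the minimum mean for testing. The 9 summed there to 8960 to 21857 normalized reads in edited and 11570 to 21704 in control samples. In mouse their sum was 4079 to 4795 normalized reads in edited and 8170 to 9512 in control samples, and its part in the results below was not tested. Of 9 cumulus and granulosa cell markers, mouse samples listed only Star, at 10.6 to 24.8 in edited and 8.85 to 11.2 in control samples. Of 8 blood markers mouse samples listed 2, at a sum of 9.92 to 39.1 in edited and 1.26 to 14.5 in control samples, and of 5 spermatozoa markers 0. Bovine samples listed 5 cumulus and granulosa cell markers, which summed to 10.4 to 46.3 in edited and 18.8 to 71.9 in control samples. They listed 3 blood markers (4.24 to 20.7 in edited and 6.85 to 25.4 in control samples) and 2 spermatozoa markers (0 to 14.0 in edited and 0 to 19.9 in control samples). Bovine control 6 stood apart: the ribosomal RNA gene RN18S1 took 36.6% of its reads, and it was the lowest control for 9 of the 13 encoded transcripts and 12 of the 24 nuclear genes.

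In mouse, 7 of the encoded genes have, over all or part of their length, an almost identical copy in the nuclear genome, and a pair of them is printed to show how close the copies are. The GENCODE M21 annotation of GRCm38 places 7 unprocessed pseudogenes, nuclear copies of mitochondrial DNA, next to each other on the minus strand at chr1:24611535-24616197. They run from the end of COX1 (copy Gm29216) through COX2 (Gm28661), ATP6 (Gm10925), COX3 (Gm28437), ND3 (Gm28438) and ND4L (Gm10222) to the start of ND4 (Gm28439). The gene of ND4L, a membrane subunit of complex I, is printed whole with its copy, since both are identical over the 294 bases of the copy. The mitochondrial gene lies at chrM:9877-10173 on the plus strand and the copy at chr1:24612407-24612700 on the minus strand.
mt-Nd4l: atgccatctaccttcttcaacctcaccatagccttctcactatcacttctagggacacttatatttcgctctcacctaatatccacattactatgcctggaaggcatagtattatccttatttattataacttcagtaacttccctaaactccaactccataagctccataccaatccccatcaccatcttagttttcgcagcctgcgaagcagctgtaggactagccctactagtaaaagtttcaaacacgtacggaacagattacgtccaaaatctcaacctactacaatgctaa
Gm10222: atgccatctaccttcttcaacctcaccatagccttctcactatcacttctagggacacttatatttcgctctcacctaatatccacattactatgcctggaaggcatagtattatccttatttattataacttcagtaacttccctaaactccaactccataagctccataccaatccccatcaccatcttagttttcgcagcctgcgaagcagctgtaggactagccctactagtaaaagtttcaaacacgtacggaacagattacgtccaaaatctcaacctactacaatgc
The first 60 bases of ND3 (chrM:9459-9518, plus strand) and of its copy (chr1:24613060-24613119, minus strand) hold the 1 base in which they differ over the 345 aligned bases, T3C, counted from 1 at the 5′ end of the gene and set in capitals.
mt-Nd3: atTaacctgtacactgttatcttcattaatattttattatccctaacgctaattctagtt
Gm28438: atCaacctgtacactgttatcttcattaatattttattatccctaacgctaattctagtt

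Such copies cover 99.6% of the length of COX2 and ATP6, 99.9% of COX3, 99.1% of ND3, 99.0% of ND4L, 63.6% of ND4 and 31.3% of COX1. They share 100% of their aligned bases with COX2, ATP6, COX3, ND4L and ND4, 99.7% with ND3 and 99.8% with COX1. None of the 7 pseudogenes is a row of the mouse table, and the sources used here do not say how reads with several matches were counted. For ND2, COX1, COX2, ND5, ND6 and CYTB the longest match lay on another chromosome. Its identity ran from 92.3% (ND5) to 97.6% (COX1, with Gm13340 on chromosome 2). Shorter matches elsewhere were not compared, and ND1 had none of at least 90% identity over 50 bases.

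Levels per length in mouse fell into 2 ranges that ran along the genome. Averaged over the 4 samples, cytochrome b (CYTB, complex III) had 31024 normalized reads per kb, ND1 18187, ND2 7579, ND6 7183, COX1 6729, ND4 5918 and ND5 5255. The neighbouring COX2, ATP6, ND4L, COX3, ATP8 and ND3 had 362, 345, 243, 138, 122 and 48.0 normalized reads per kb. Of these 6 low transcripts, 5 are the ones that lie almost entirely in the chromosome 1 copies, and ATP8 lies between COX2 and ATP6, in the stretch between 2 annotated copies (it shares 43 bases with ATP6, and matches under 50 bases were not counted). The part that reads with several matches have in these low levels was not tested. In a library the 6 low transcripts rest on 11 to 317 reads each, and 3 reads are a larger share of such values than of the others.

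**Figure D1:**
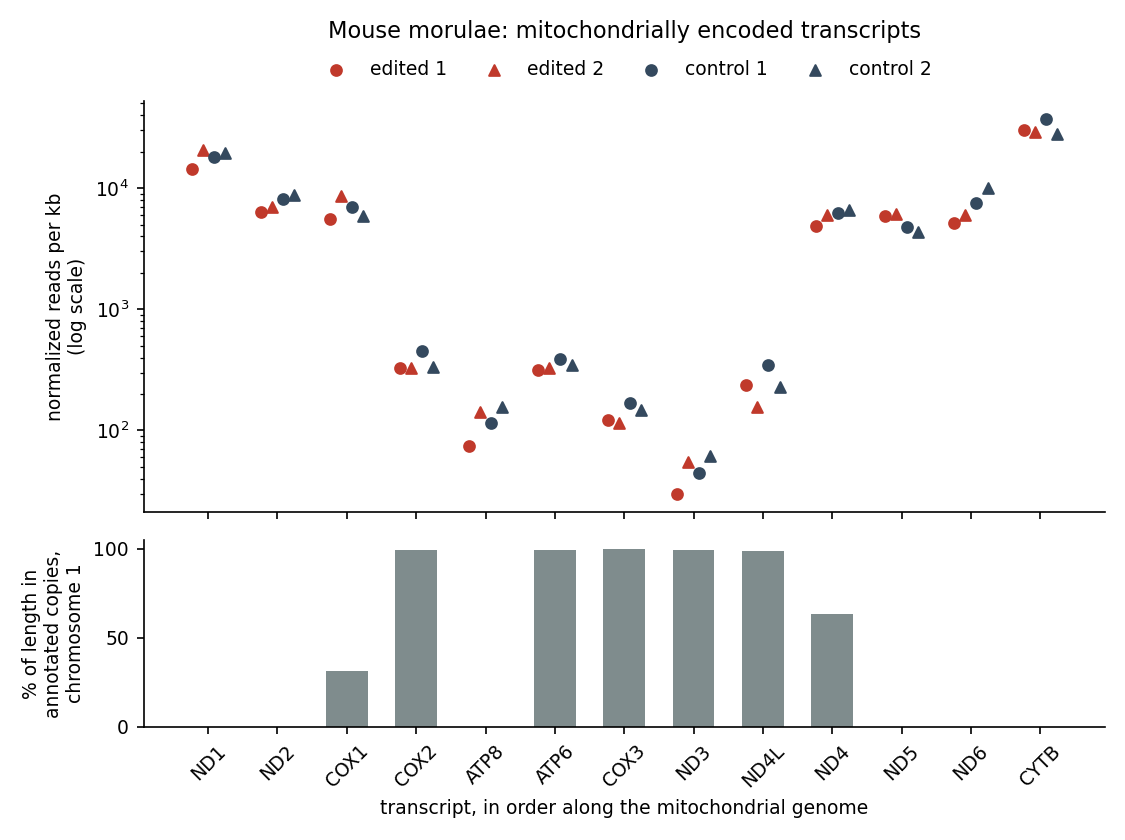
Normalized reads per kb (log scale) of the 13 encoded transcripts in each mouse sample, in their order along the mitochondrial genome (above), and the percent of each gene's length that lies in annotated copies on chromosome 1 (below). The 6 transcripts from COX2 to ND4L average 48.0 to 362 reads per kb, and the other 7 average 5255 to 31024.

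In mouse morulae 1 of the 13 encoded transcripts changed: ND6, a membrane subunit of complex I, was lower in edited embryos. No encoded transcript was higher at an adjusted p under 0.05 (limma with Benjamini-Hochberg adjustment over all genes, the test used throughout). Of all 11386 tested genes 15.3% passed, 6.92% higher and 8.38% lower in edited embryos, so 1 of 13 is no larger a share than the background. The median log2 fold change of the 13 was -0.25, against -0.005 over all tested genes, and 2 of 13 were positive, against 49.7% of all tested genes. The sign of this median depends on the processing: with each sample's trend with transcript length removed it was 0.24 (0.0009 over all genes), and it was -0.14 without edited 1 and -0.37 without edited 2. Groups did not overlap for 7 of 13, against 57.8% of all tested genes. ND5 was the 1 with edited samples higher, against 28.6% of all genes, and 6 had edited samples lower, against 29.2%. An unadjusted p under 0.05 was found for ND6, ND5 and ND2, 3 of 13 against 28.6% of all genes. Among the 5 transcripts with no part in the chromosome 1 copies and ATP8 set aside, the median was -0.14.

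ND6 had 2666 and 3104 normalized reads in edited morulae, against 3942 and 5199 in control morulae. Both edited samples lay below both controls, and the log2 fold change was -0.65 ± 0.17 (SE, adjusted p = 0.0084). Without control 2 the call was lost, with a change of -0.45 and an adjusted p of 0.29. It was also lost when each sample's trend with transcript length was removed, which left a log2 fold change of -0.10 (adjusted p = 0.70). ND5, another membrane subunit of complex I whose gene lies next to ND6 on the other strand, had 10673 and 11126 normalized reads in edited morulae, against 8686 and 7852 in control morulae. Here both edited samples lay above both controls, but the log2 fold change of 0.40 ± 0.15 missed the threshold (adjusted p = 0.0793, 95% interval 0.08 to 0.72). The reads of ND6 per read of ND5, a ratio chosen after the values were seen and free of the scaling between samples, were 0.25 and 0.28 in edited morulae, against 0.45 and 0.66 in control morulae. Per read of CYTB, ND6 had 0.0778 and 0.0930 in edited and 0.0935 and 0.162 in control morulae. Edited 2 and control 1 thus lay close together. ND5 had 0.311 and 0.333 per read of CYTB in edited and 0.206 and 0.244 in control morulae. The annotated genes of ND6 and ND5 share 14 bases on opposite strands, and the strand setting of the counts is not known here. Reads of ND6 and reads antisense to it can therefore not be told apart, in these 14 bases or in the rest of the gene. The values and ratios given for ND6 may thus hold reads other than those of its messenger.

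The other complex I transcripts of the high range showed smaller differences. ND2 had 6600 and 7227 normalized reads in edited morulae, against 8479 and 9161 in control morulae. Both edited samples were lower, with a log2 fold change of -0.35 ± 0.16 that did not pass (adjusted p = 0.129). ND4 had 6699 and 8268 in edited and 8607 and 9047 in control morulae (log2 fold change -0.25 ± 0.16, adjusted p = 0.32). For ND1 the groups overlapped, with a log2 fold change of -0.14 ± 0.17.

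CYTB and COX1, the catalytic core of cytochrome c oxidase, also overlapped between groups. CYTB had 34286 and 33397 normalized reads in edited morulae and 42148 and 32133 in control morulae, a log2 fold change of -0.12 ± 0.17 (95% interval -0.47 to 0.22). COX1 had 8590 and 13224 in edited and 10716 and 9054 in control morulae, a log2 fold change of 0.11 ± 0.18 (95% interval -0.25 to 0.48). The 6 low transcripts had log2 fold changes of -0.54 for ND4L, -0.42 for COX3, -0.35 for ATP8 and ND3, -0.25 for COX2 and -0.19 for ATP6. Their standard errors ran from 0.22 for ATP6 to 0.59 for ND3, and none passed.

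In bovine blastocysts no encoded transcript passed the threshold, where 0.0113% of 8884 genes did (1 gene in all, and 5 with DESeq2). At an unadjusted p under 0.05, 2 of 13 stood out, against 5.88% of all tested genes, and DESeq2 and edgeR called 0 of the 13 as well. Log2 fold changes ran from -0.50 for ND5 to 0.31 for ATP8, with a median of -0.23 against 0.01 over all genes, and 4 of 13 were positive against 51.5%. Single libraries moved this median both ways, to -0.12 without control 1, -0.12 without edited 6 and -0.14 without control 4. It was -0.31 without control 2 and -0.30 without control 6. The groups overlapped for every encoded transcript.

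ND5 had a lowest, median and highest value of 5128, 6713 and 10895 normalized reads in edited blastocysts, against 7306, 10233 and 14707 in controls. The log2 fold change was -0.50 ± 0.20 (unadjusted interval -0.93 to -0.08, adjusted p = 0.79). ND6 had 1273, 1640 and 2151 normalized reads in edited blastocysts, against 1643, 2123 and 2851 in controls, a log2 fold change of -0.39 ± 0.17 (adjusted p = 0.79). For both genes the highest edited sample lay above the control median. Reads of ND6 per read of ND5 had a median of 0.264 in edited and 0.218 in control blastocysts, and their ranges, 0.143 to 0.295 and 0.146 to 0.325, overlapped nearly in full. The ND5 difference was positive in mouse and negative in bovine embryos, which also differ in stage, and the difference between species was not tested.

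COX1 had 16732, 26288 and 43080 normalized reads (lowest, median, highest) in edited blastocysts, against 22614, 35920 and 54070 in controls, a log2 fold change of -0.43 ± 0.24. CYTB had 5050, 6691 and 7276 in edited blastocysts, against 2831, 5706 and 7883 in controls, with a log2 fold change of 0.27 ± 0.21. Neither passed, and the groups overlapped for both. The ratio of COX1 to CYTB reads, chosen after the values were seen, had a median of 3.97 (2.30 to 6.15) in edited and 7.08 (4.43 to 9.43) in control blastocysts. The ratio of ND5 to CYTB reads had a median of 1.16 (0.705 to 1.56) in edited and 1.95 (1.29 to 2.58) in control blastocysts, again with overlap.

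The remaining bovine transcripts did not pass either. ND1, ND2, ND3, ND4, COX2 and ATP6 had log2 fold changes between -0.29 and -0.11 with standard errors of 0.19 to 0.22. COX3 was at 0.02 ± 0.21 and ND4L at 0.06 ± 0.34. ATP8, a small subunit of ATP synthase, had a log2 fold change of 0.31 ± 0.42 and ran from 344 to 1119 normalized reads in edited and from 174 to 1822 in control blastocysts. Of the transcripts in the low range of mouse, bovine COX2 and COX3 averaged 7578 and 13273 normalized reads in edited blastocysts and 9061 and 13564 in controls. ATP6 averaged 9995 in edited and 12673 in control blastocysts, and ND3, at lower values, 1700 and 2044. These are not levels per length, since no bovine lengths are given, so the ranges of mouse were not looked for in bovine.

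**Figure D2:**
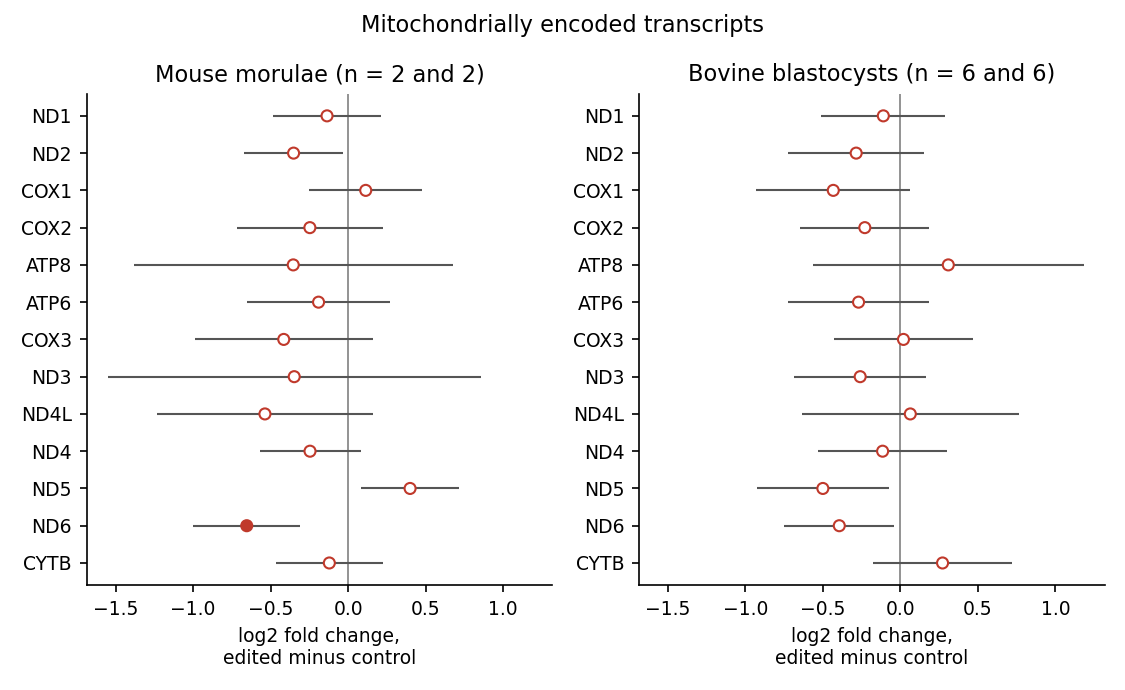
Log2 fold change, edited minus control, of each encoded transcript in mouse morulae (left) and bovine blastocysts (right), with 95% intervals before adjustment; filled points pass an adjusted p under 0.05. Only mouse ND6 (-0.65) is filled, and the bovine values lie between -0.50 and 0.31.

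Among the 24 nuclear genes, 2 changed in mouse morulae, both lower in edited embryos: Slirp, a partner of Lrpprc in the complex that binds and stabilizes mitochondrial messengers, and Ssbp1, which coats single-stranded mitochondrial DNA at the replication fork. None was higher. This is 2 of 24 against 15.3% of all tested genes, and the median log2 fold change was -0.04, a sign that turned with 3 of the scalings tried (0.09 to 0.13, where the median of all genes was 0.12 to 0.16) and without edited 1 (0.006), and it was -0.22 without edited 2. Groups did not overlap for 10 of 24, 4 higher and 6 lower, against 57.8% of all genes, and 4 had an unadjusted p under 0.05, against 28.6%. In bovine blastocysts limma, edgeR and DESeq2 each called 0 of 24. An unadjusted p under 0.05 (limma) was found for 1 of 24, or 4.17%, against 5.88% of all tested genes. The bovine median was 0.17 against 0.01 over all genes, and 19 of 24 were positive against 51.5%. Without control 6, the library that stood apart, the median was 0.08.

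Replication was represented by 4 genes. Ssbp1 had 361 and 517 normalized reads in edited morulae, against 720 and 646 in control morulae, so both edited samples were lower. The log2 fold change was -0.66 ± 0.20 (adjusted p = 0.0272). The call was lost without edited 1 (adjusted p = 0.22), control 1 (0.29) or control 2 (0.15), and when samples were scaled to the same total (0.066) or to a total without the most abundant feature (0.087). Polg, the catalytic subunit of the mitochondrial DNA polymerase, had 55.3 and 75.1 in edited and 60.3 and 68.3 in control morulae, a log2 fold change of 0.006 ± 0.33. Its accessory subunit Polg2 was at -0.47 ± 0.47 on 17.0 to 41.3 normalized reads. Mgme1, an exonuclease that trims replication intermediates, was at 0.30 ± 0.24. In bovine blastocysts SSBP1 had 154, 197 and 212 normalized reads (lowest, median, highest) in edited and 125, 178 and 217 in control samples, a log2 fold change of 0.12 ± 0.18 (95% interval -0.25 to 0.49). POLG, POLG2 and MGME1 were at 0.27, 0.30 and -0.06 with standard errors of 0.33 to 0.48.

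The transcription and packaging genes showed no call in either species. Tfam, which packs mitochondrial DNA and bends its promoters, had 200.2 and 302 normalized reads in edited morulae, against 350 and 317 in control morulae. Both edited values were lower, by little in edited 2, and the log2 fold change of -0.44 ± 0.23 did not pass (adjusted p = 0.21). The polymerase gene Polrmt and the promoter-opening factor gene Tfb2m were at 0.28 ± 0.23 and 0.31 ± 0.26. Bovine TFAM had 184, 240.1 and 291 normalized reads (lowest, median, highest) in edited and 187, 239 and 314 in control blastocysts, nearly the same range in both. Its log2 fold change was -0.04 ± 0.18 (95% interval -0.41 to 0.33), and POLRMT and TFB2M were at -0.17 ± 0.26 and 0.16 ± 0.20.

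Among the 11 genes for RNA processing, stability and modification, Slirp had 126 and 153 normalized reads in edited morulae, against 242 and 277 in control morulae. The groups lay apart, with a log2 fold change of -0.90 ± 0.24 (adjusted p = 0.0113), and the call was lost without control 1 (0.092) or control 2 (0.19). Its partner Lrpprc had 698 and 819 in edited and 862 and 885 in control morulae. Here too both edited values were lower, with a log2 fold change of -0.21 ± 0.18 that did not pass (adjusted p = 0.48). Reads of Slirp per read of Lrpprc, a ratio chosen after the values were seen, were 0.180 and 0.187 in edited morulae, against 0.281 and 0.313 in control morulae. Bovine SLIRP had 181, 202 and 240.5 normalized reads (lowest, median, highest) in edited and 119, 192 and 260.2 in control blastocysts. Its log2 fold change was 0.16 ± 0.18 (95% interval -0.22 to 0.55), and the ratio to LRPPRC had a median of 0.682 in edited and 0.716 in control blastocysts.

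**Figure D3:**
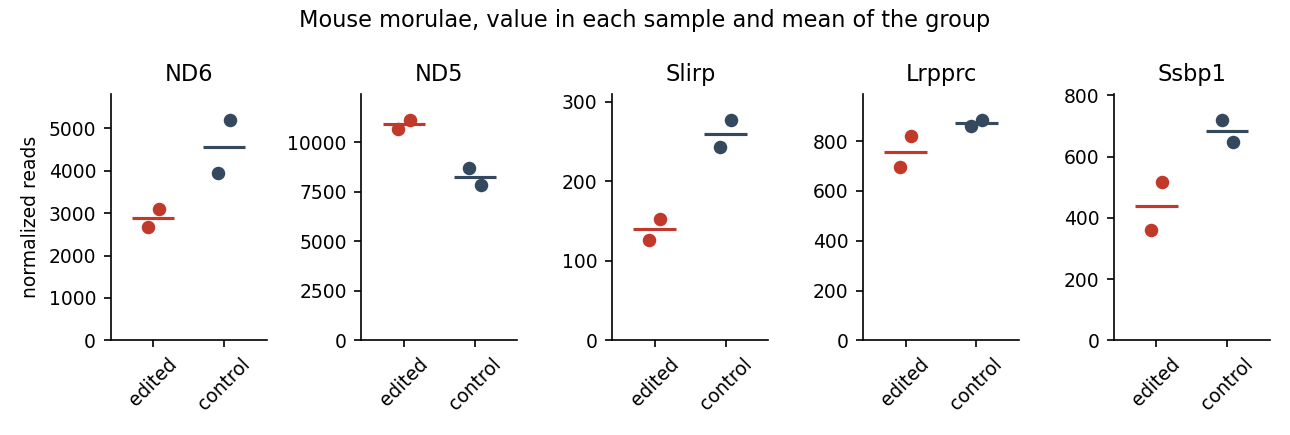
Normalized reads of ND6, ND5, Slirp, Lrpprc and Ssbp1 in each mouse sample (points) with the mean of each group (lines), n = 2 each, axes from 0. In the panels of ND6, Slirp, Lrpprc and Ssbp1 both edited points lie below both control points, and in that of ND5 they lie above.

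Tfb1m and Ptcd3 came nearest to the threshold without passing it. Tfb1m, which methylates the small ribosomal RNA of mitochondria, had 31.5 and 48.2 normalized reads in edited morulae, against 77.1 and 79.7 in control morulae. Both edited values were lower (log2 fold change -0.99 ± 0.36, adjusted p = 0.0597). Ptcd3, a protein of the small mitochondrial ribosome subunit, had 262 and 288 in edited morulae, against 156 and 195 in control morulae. Both were higher (log2 fold change 0.65 ± 0.23, adjusted p = 0.0565). In bovine blastocysts TFB1M was at -0.04 ± 0.21, and PTCD3 had 103, 113 and 133 normalized reads (lowest, median, highest) in edited and 46.4, 90.6 and 123.3 in control samples, a log2 fold change of 0.44 ± 0.21 (adjusted p = 0.79).

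The other 7 RNA genes did not pass in mouse. Fastkd1, Fastkd2 and Fastkd5, RNA-binding proteins of the FASTK family, were at -0.44 ± 0.27, -0.01 ± 0.31 and 0.44 ± 0.37 (log2 fold change). Ptcd1, a pentatricopeptide protein that acts on leucine transfer RNA precursors, was at 0.39 ± 0.41. Pnpt1, an exoribonuclease of the RNA degrading complex, was at -0.18 ± 0.29, Elac2, which cuts the 3′ ends of transfer RNAs, at -0.03 ± 0.24, and Mto1, which modifies the wobble uridine of transfer RNAs, at -0.04 ± 0.32. In bovine blastocysts PNPT1 was the 1 of 24 nuclear genes with an unadjusted p under 0.05, a share below the 5.88% of all tested genes. It had 98.2, 109 and 126 normalized reads (lowest, median, highest) in edited and 40.9, 80.9 and 118 in control blastocysts, a log2 fold change of 0.52 ± 0.22 (adjusted p = 0.79). MTO1 was at 0.52 ± 0.33, and ELAC2, FASTKD1, FASTKD2, FASTKD5 and PTCD1 lay between 0.08 and 0.32.

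No gene of the 6 translation factors passed in either species. Tufm, which brings aminoacylated transfer RNAs to the ribosome, had 492 and 589 normalized reads in edited morulae, against 411 and 434 in control morulae. Both edited values were higher, with a log2 fold change of 0.35 ± 0.20 (adjusted p = 0.25). Tsfm, which recharges Tufm with GTP, was at -0.13 ± 0.24, the initiation factor genes Mtif2 and Mtif3 at -0.35 ± 0.29 and 0.12 ± 0.28, and the elongation and recycling factor genes Gfm1 and Gfm2 at -0.02 ± 0.22 and -0.28 ± 0.29. In bovine blastocysts TUFM had 172, 248 and 347 normalized reads (lowest, median, highest) in edited and 166, 236 and 336 in control samples, almost the same range. MTIF2 was the lowest, at -0.57 ± 0.29. MTIF3, TSFM and GFM2 were at 0.42 ± 0.23, 0.39 ± 0.19 and 0.39 ± 0.33, and TUFM and GFM1 at 0.09 ± 0.21 and 0.06 ± 0.24. Leaving out bovine edited 3, which held the highest MTIF2 value, moved that log2 fold change to -0.80.

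**Figure D4:**
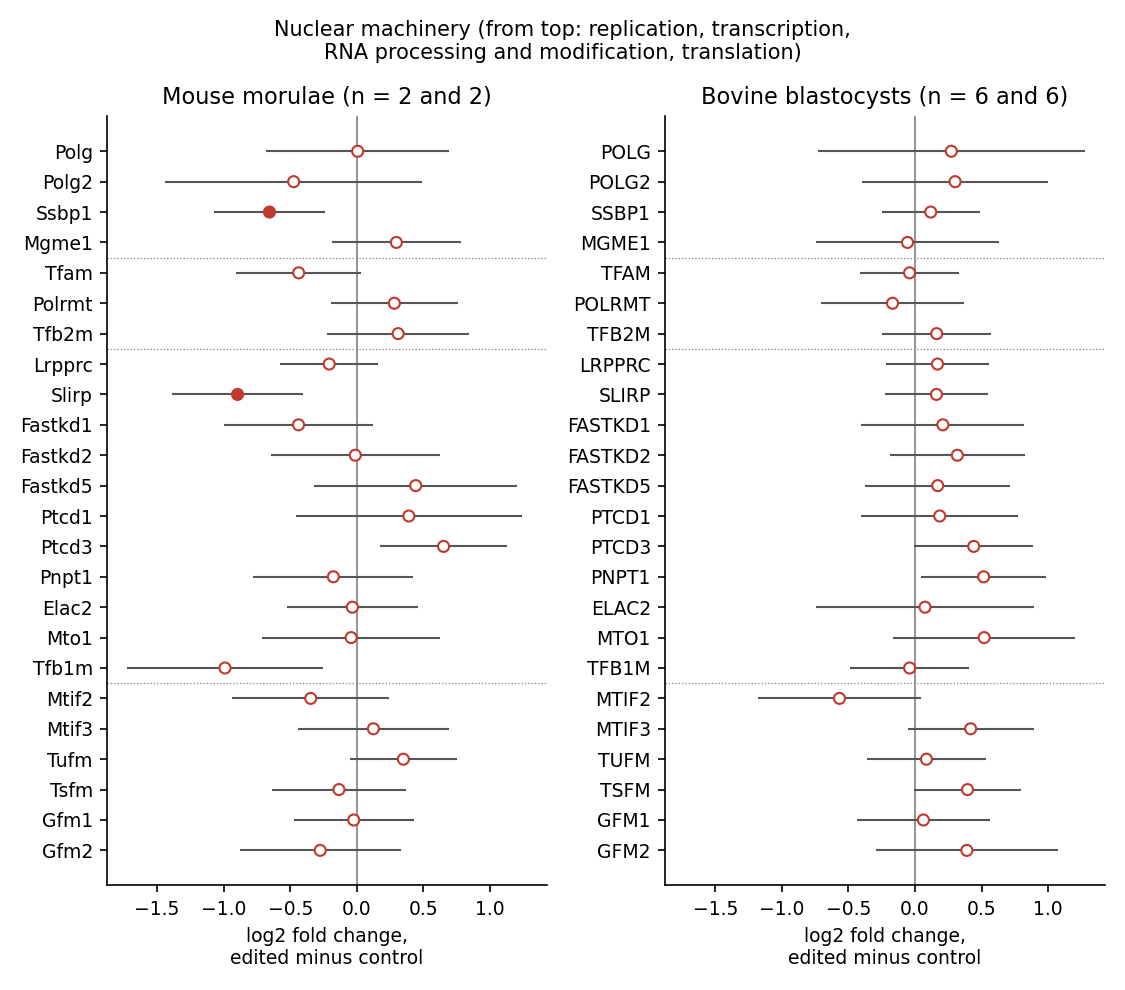
Log2 fold change, edited minus control, of the 24 nuclear genes by role in mouse morulae (left) and bovine blastocysts (right), with 95% intervals before adjustment; filled points pass an adjusted p under 0.05. Mouse Ssbp1 (-0.66) and Slirp (-0.90) are filled, and no bovine gene is.

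A wider list of 80 further symbols for mitochondrial DNA maintenance, RNA processing and ribosome assembly gave 71 tested genes in mouse. Of these 5 rose and 3 fell in edited morulae, against 6.92% and 8.38% of all tested genes, and their median log2 fold change was 0.05. Noa1, a GTPase of ribosome assembly, had 151 and 114 normalized reads in edited morulae, against 43.6 and 53.1 in control morulae. It had the largest rise, 1.43 ± 0.31 on the log2 scale (adjusted p = 0.00256). Gtpbp3, the partner of Mto1 in transfer RNA modification, had 121 and 134 in edited morulae, against 46.9 and 73.4 in control morulae (1.10 ± 0.31, adjusted p = 0.0156). Without control 1 neither passed, with adjusted p of 0.059 for Noa1 and 0.26 for Gtpbp3.

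Top1mt, the mitochondrial topoisomerase, had 96.3 and 60.2 normalized reads in edited morulae, against 30.2 and 35.4 in control morulae, and Ddx28, a helicase that helps to build the large ribosome subunit, had 275 and 199.9, against 156 and 106. Both rose, Top1mt by 1.2 ± 0.37 and Ddx28 by 0.86 ± 0.26 on the log2 scale (adjusted p = 0.0292 and 0.0252). Pprc1, a coactivator related to PGC-1, was the other that rose, by 0.63 ± 0.20, and is named after its value was seen; it was lost without edited 1, control 1 or control 2 and with the length trend removed. Mpv17, an inner membrane protein needed to maintain mitochondrial DNA, had 164 and 187 normalized reads in edited morulae, against 344 and 306 in control morulae (-0.89 ± 0.23, adjusted p = 0.00798). Rpusd3, a pseudouridine synthase, fell by 0.80 ± 0.27 and Mpv17l2, another ribosome assembly factor, by 0.69 ± 0.23 on the log2 scale, with adjusted p of 0.0469 and 0.0383. The last of these calls were the least firm: Rpusd3 passed in 7 and Mpv17l2 in 9 of 17 alternative settings. Ddx28 passed in 12, Top1mt in 13 and Mpv17 in 15 of them. All 3 were lost without control 1 and without control 2, and Top1mt and Ddx28 also without edited 1. With DESeq2 Top1mt and Ddx28 missed the threshold (adjusted p = 0.071 and 0.054), and Mpv17 passed (0.0081). In bovine blastocysts 0 of 66 tested genes of this list passed with limma, edgeR or DESeq2. At an unadjusted p under 0.05 (limma) there was 1 of 66, or 1.52%, against 5.88% of all tested genes. It was TRMT5, which methylates transfer RNAs, at 0.90 ± 0.26 (adjusted p = 0.79, named after its value was seen). NOA1 and GTPBP3 were at 0.06 ± 0.22 and 0.21 ± 0.27 there, and MPV17 at 0.20 ± 0.21.

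Set against all reads, the encoded transcripts took much the same share in both mouse groups. They held 2.0% and 2.2% of the reads of edited morulae and 2.2% and 2.0% of control morulae, and there were 18.5 and 18.8 encoded reads per read of the 24 nuclear genes in edited morulae, against 19.3 and 18.1 in control morulae. The most abundant mouse feature, LOC101056014, took 7.20% and 4.73% of reads in edited and 2.42% and 3.30% in control morulae. With it taken out of the total, the shares were 2.16% and 2.34% in edited and 2.21% and 2.06% in control morulae. In bovine blastocysts the share had a lowest, median and highest value of 5.76%, 6.40% and 8.21% in edited samples, against 4.41%, 7.30% and 10.6% in controls. The means were 6.72% ± 0.92 in edited and 7.54% ± 2.29 in control blastocysts (SD, n = 6 each), a difference of -0.815 percentage points that is within the spread of the controls. The edited range lay inside the control range. The lowest control share belonged to control 6, and without that sample the difference was -1.44 percentage points, while it was -0.398 without control 1 and -0.203 without control 4. With the ribosomal RNA gene RN18S1 taken out of the total, the shares were 7.70% ± 1.11 in edited and 9.39% ± 2.20 in control blastocysts. Encoded reads per read of the nuclear genes had a median of 44.8 (37 to 54.4) in edited and 60.2 (44.6 to 71.2) in control blastocysts, and 3 controls lay above every edited sample. These shares are descriptions with no test. They cannot be compared between species, since the embryos differ in stage and 6 mouse transcripts had low levels per length.

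**Figure D5:**
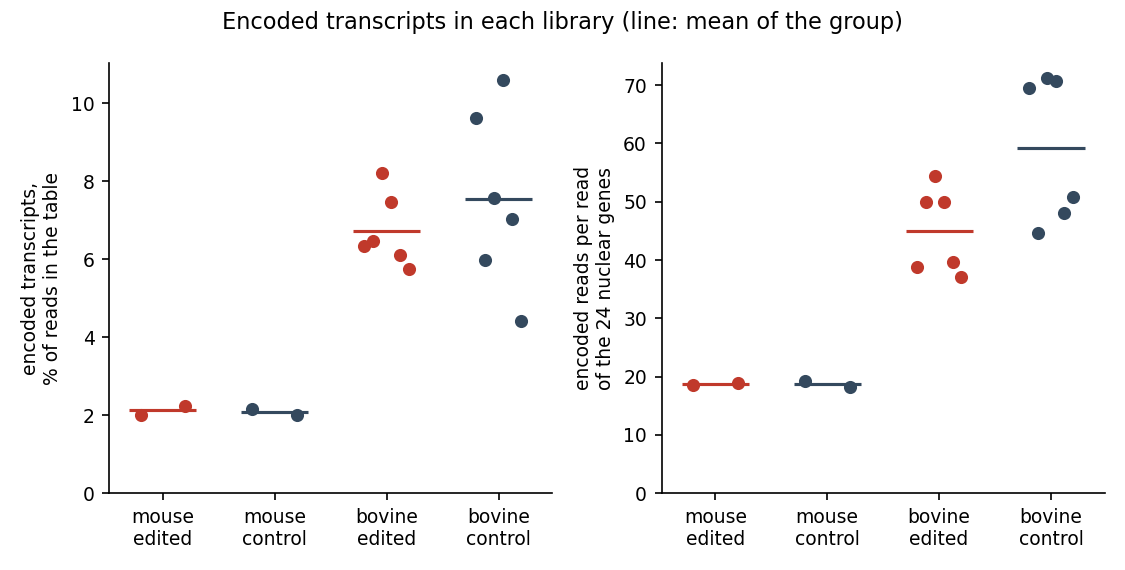
Encoded transcripts as a percent of the reads in the table (left) and as reads per read of the 24 nuclear genes (right) in each library, with the mean of each group as a line, axes from 0. Edited and control samples overlap in each species, and the bovine control shares (4.41% to 10.6%) spread wider than the edited ones (5.76% to 8.21%).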

How the data were processed

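Per the labels' protocols, libraries followed Smart-seq2 with oligo(dT) priming of polyadenylated RNA. Tools named in the submitters' processing notes, without versions, are DESeq2, featureCounts, HISAT2 and Trimmomatic, and the builds are mm10 and ARS-UCD1.2. The deposited signal values are gene counts over a size factor for each library, computed by the authors with DESeq2 (file headers). Whole reads were recovered for 100% of values (tolerance 0.05 reads). The deposited tables also hold the authors' log2 fold changes, a test statistic (a score, not used) and p-values, per the file headers. These were not used for any result.

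Each table was fitted alone with limma 3.58.1 (R 4.3.3, trend, two-sided) on log2(value + 1), which understates changes of low genes, for genes with a mean of at least 10, with Benjamini-Hochberg adjustment over all of them and a threshold of 0.05. Members and lists were chosen with earlier results of these data known. Every member is named, and up to 4 genes each way of the wider list. edgeR 4.0.16 and DESeq2 1.42.0 on the recovered reads, other scalings, filters, pseudocounts (0.5 and 5), a replicate block, a length trend and left-out samples were alternatives. Copies were found with blastn 2.17.0 among GENCODE M21 transcripts (at least 90% identity over 50 bases). Gene lengths and sequences come from the same annotation. The scripts were tested on simulated data. Intervals and limits cover counting error or the spread of these samples only. No bovine coordinates or lengths are given, since the reference was not the authors' build.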

Additional observations from a re-analysis of the deposited data

Results flagged for a closer look

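In each bovine group the highest or lowest sample was set against the other 5 for each of the 37 genes and for the share of reads of the encoded transcripts and of the nuclear genes. Of 78 such groups, 7 held a sample whose gap to its nearest neighbour was more than 0.625 of the whole range, and chance flags about 1 in 20. In edited 3, MTIF2 was at 34.0 normalized reads, against 10.4 to 14.3 in the other edited samples. MGME1 was at 36.8 in the same sample, against 9.26 to 17.1 in the others, and ND5 at 10895, against 5128 to 7285. In control 6, POLRMT was at 140.4 normalized reads, against 63.9 to 86.2 in the other controls, while TFB2M was at 49.7, against 82.8 to 92.4. COX3 was at 24016 normalized reads in control 1, against 9383 to 13739 in the other controls. FASTKD2 was at 29.2 in control 3, against 19.9 to 22.5. Edited 3 was the highest edited sample for 7 of the 13 encoded transcripts and 9 of the 24 nuclear genes, and control 1 the highest control for 9 of the 13.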

How the results depend on the processing

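No called gene changed direction under the alternatives run. Of 743 pairs of a named mouse gene and a setting, 690 kept their side of the threshold, 41 lost and 12 gained a call; 22 mouse genes changed sign in a setting, none of them while called. All 875 bovine pairs stayed without a call, and 12 bovine genes changed sign. Scaling to the same total shifted the median log2 fold change of all mouse genes to 0.12 (also without the encoded genes) and to 0.16 without the most abundant feature, and of all bovine genes to 0.13, 0.12 and -0.02. The median of the encoded transcripts stayed negative under them in mouse (-0.12, -0.12 and -0.07) and bovine (-0.11, -0.12 and -0.26), and that of the bovine nuclear genes positive (0.29, 0.28 and 0.14). With the length trend removed the median of the mouse encoded transcripts turned to 0.24 (all genes 0.0009). Under these 3 scalings 2 mouse encoded transcripts were called, ND5 higher and ND6 lower. Of the wider mouse list (8 called), 13 were called without the most abundant feature (12 higher, 1 lower), 4 with DESeq2 and 4 with the length trend removed, where ND5 was called in place of ND6. In bovine, DESeq2 called 5 of all genes.

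Leaving out 1 sample at a time gave 533 to 2573 called mouse genes, 0 to 1 encoded transcripts, 0 to 5 nuclear genes and 0 to 11 of the wider list. The full table gave 1742 calls, against 535 without control 1, 533 without control 2 and 2573 without edited 2. The nuclear count was 0 without control 1 or control 2, 1 without edited 1 and 5 without edited 2. The share difference ranged from -0.070 to 0.159 percentage points in mouse and from -1.44 to -0.203 in bovine. The median log2 fold change ranged from -0.37 to -0.14 for the encoded and from -0.22 to 0.006 for the nuclear genes in mouse, and from -0.31 to -0.12 and from 0.08 to 0.22 in bovine. With 3 samples left, the lone sample of a group is assumed to vary like the others.

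Same-numbered samples were not shown to be paired: their correlations were 0.1056 in both mouse pairs and -0.193 to 0.335 in bovine. A fit with the replicate number as a block called 1816 mouse genes, 1 encoded, 3 nuclear (Tfb1m added) and 9 of the wider list, and in bovine 1 gene and none of the lists. A length trend could not be fitted in bovine. Depth limits the 6 mouse transcripts of 11 to 317 reads a library.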
